A study of Mus musculus with 24 samples.

Results

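Lysosomal enzymes and membrane proteins were followed as a set of 37 genes: 9 proteases, 11 glycosidases and sulfatases, 6 enzymes and cofactors of lipid breakdown, 6 membrane proteins, 3 subunits of the proton pump, progranulin and the transcription factor Tfeb. The genes were taken by name, and each was read from the brightest probe on the array that carried its symbol. A probe was named for 36 of them, and 32 passed the detection filter and were tested, among 7576 named genes in all. Npc1 had no named probe. Ctsa, Ctsl, Gla and Tfeb had probes that did not pass: the brightest Ctsa probe was detected on 3 of 24 arrays, Ctsl on 3, Gla on 2 and Tfeb on 0.

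The cells were fibro/adipogenic progenitors (FAPs), the mesenchymal cells of skeletal muscle that can give rise to fibroblasts and fat cells. They were sorted fresh from wild-type male C57BL/6J mice, from pooled quadriceps, gastrocnemius and tibialis anterior. The 4 groups, with 6 arrays each, were old activated (20 to 24 months, 3 days after 50 µl of 50% glycerol was injected into the muscles), young activated (2 to 4 months, the same injury), old quiescent (20 to 24 months, uninjured) and young quiescent (2 to 4 months, uninjured). All were wild type, and age and injury were the only differences between the groups that the labels explain. Each group's data columns also share a letter of unstated meaning, which cannot be told apart from age and injury. The series' text calls the arrays biological replicates without saying which animals each holds, and the sources used here do not give the sort gates, so p-values measure the spread between these arrays.

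Levels are log2 normalized intensities and hold for 1 probe each, so they are compared between arrays and never between genes. For every group the lowest, median and highest of its 6 arrays are given in that order. A gene was called where the adjusted p of limma, over all features on the array, was under 0.05, and log2 changes carry the moderated standard error (SE).

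Lysosomes are the acidic compartment in which cells break down protein, sugar chains, lipids and nucleic acids delivered by endocytosis, phagocytosis and autophagy. Most of the enzymes are made as precursors, tagged with mannose 6-phosphate and carried to the lysosome by receptors, and the vacuolar ATPase pumps in the protons that they need. Many of the genes share the CLEAR element in their promoters, which TFEB and its relatives bind. Loss of single enzymes causes lysosomal storage diseases, several of which affect muscle, and phagocytes that clear debris from injured muscle are known for abundant lysosomes.

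Promoter sequences are shown because the core of the CLEAR element is a feature of the DNA that the arrays did not measure. The genes were chosen as lysosomal genes, many of which are known to share the element. A share above that of all promoters is therefore not independent of the choice of genes. The motifs searched were TCACGTGA and the E-box CACGTG that lies inside it; each reads the same on both strands. The windows were the 300 bases from 250 before to 50 after the start in RefSeq (GRCm38.p6), where 33 of the 37 genes had 37 promoters; Ctsb, Ctsh, Asah1 and Npc1 were not matched. The longer word was in 6 of the 37 promoters (16.2%), against 320 of all 32851 promoters (0.974%). These were promoters of Atp6v0d1, Atp6v1a, Ctsa, Ctsd, Gla and Mcoln1. The shorter word was in 13 (35.1%), against 2349 of all (7.15%). Stretches of 7 promoters are printed 5′ to 3′ with the longer word in capitals, or the E-box where the longer word is absent, from genes called higher on activated arrays in both ages (Ctsd) or in old mice (Atp6v0d1, Lamp1), called lower in both ages (Gaa) or in young mice (Arsa), and called in neither (Atp6v1a, Mcoln1).
Ctsd, chr7:142387893-142387952, minus strand: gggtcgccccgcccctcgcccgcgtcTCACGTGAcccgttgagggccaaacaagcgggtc
Atp6v0d1, chr8:105566035-105566094, minus strand: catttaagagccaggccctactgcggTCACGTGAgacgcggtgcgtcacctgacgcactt
Lamp1, chr8:13159074-13159177, plus strand: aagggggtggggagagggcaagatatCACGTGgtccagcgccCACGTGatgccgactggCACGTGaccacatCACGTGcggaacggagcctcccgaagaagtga
Gaa, chr11:119267797-119267854, plus strand: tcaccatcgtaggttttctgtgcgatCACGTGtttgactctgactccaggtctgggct
Arsa, chr15:89477409-89477466, minus strand: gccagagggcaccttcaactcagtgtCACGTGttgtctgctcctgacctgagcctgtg
Atp6v1a, chr16:44139358-44139417, minus strand: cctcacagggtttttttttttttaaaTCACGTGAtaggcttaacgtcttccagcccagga
Mcoln1, chr8:3500447-3500506, plus strand: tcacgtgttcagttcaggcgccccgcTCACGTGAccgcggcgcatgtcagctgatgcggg
Counted from the start site as 1, with no 0 and with negative positions upstream, the longer word began at -99 in Ctsd, -4 in Atp6v0d1, -132 in Atp6v1a and -46 in Mcoln1. The E-box alone began at -140 in Gaa and -16 in Arsa. Lamp1 held it 4 times, at -61, -45, -28 and -15, and did not hold the longer word. Promoters with the longer word thus belonged to genes called in both ages, in old mice alone and in neither, and the E-box alone stood before Gaa, called lower in both. The Mcoln1 stretch holds a further E-box in lower case, near its left end. A match is a description of the letters in this window and does not show that a factor binds there.

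Arrays had 6587 to 9943 detected probes. Several arrays stood apart in the markers of other cell types. The 16 macrophage and monocyte markers tested, of 20 listed, had summed intensities of 42030 to 69837 in old activated arrays, 20257 to 63702 in young activated arrays, 6710 to 53668 in old quiescent arrays and 5027 to 11802 in young quiescent arrays. All 16 were called higher on activated arrays in both ages, and none was undetected throughout a group. Old quiescent array 2 had the 53668 and array 1 of that group 29406, whereas the other 4 old quiescent arrays lay between 6710 and 13356. Young activated array 1 (63702) and old activated array 1 (69837) were the highest of their groups. The FAP and fibroblast markers Pdgfra, Dcn and Lum were detected on all 24 arrays. All were called lower on activated arrays in both ages. The 12 FAP and fibroblast markers tested, of 14 listed, summed to 13058 to 24105 in old activated arrays and 13627 to 21446 in young activated arrays, against 35434 to 47252 in old quiescent arrays and 38612 to 50995 in young quiescent arrays. Of these 12, 9 were called lower and 1 (Thy1) higher in old mice, and 10 lower and 0 higher in young mice. Gsn was detected on no activated array. Of the other marker lists, 7 tested endothelial genes summed to 2412 to 3872 in old activated arrays and 502 to 2495 in young activated arrays, against 4243 to 15101 in old quiescent arrays and 9342 to 17069 in young quiescent arrays, and 3 fell in old and 7 in young mice. The 2 tested red blood cell genes summed to 1540 to 4168 in old activated arrays and 332 to 819 in young activated arrays, against 8188 to 19285 in old quiescent arrays and 9519 to 16592 in young quiescent arrays, and both fell in each age. The 2 tested muscle genes summed to 179 to 1891 in old activated arrays, where array 1 had the 1891 and the next 416, and to 97 to 239 in young activated arrays, against 433 to 1012 in old quiescent arrays and 374 to 1165 in young quiescent arrays. The 4 tested neutrophil genes summed to 1467 to 3059 in old activated arrays and 356 to 1574 in young activated arrays, against 347 to 7378 in old quiescent arrays and 141 to 1403 in young quiescent arrays. The 5 tested lymphocyte genes reached 330 on old activated arrays and 205 on young activated arrays, against 2768 on an old quiescent array and 170 on young quiescent arrays. In sorted bulk samples fewer cells of a type and less RNA per cell cannot be told apart, and the part of other cells in the results that follow was not tested.

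Arrays of activated FAPs had higher signal of cathepsins B, C, D and Z, of β-glucuronidase and of progranulin in both ages, and lower signal of cathepsin K, acid α-glucosidase and the brightest Lamp2 probe. The Ctsk call in old mice, both Ctsz calls and the young Grn call lay near the threshold. They were lost in 9 to 22 of 35 other settings. In old mice 10 of the 32 genes were called higher and 3 lower on activated arrays (31.2% and 9.38%), where 14.5% and 13.9% of all named genes were. In young mice 9 were called higher and 5 lower (28.1% and 15.6%), where 17.1% and 16.7% of all named genes were. The share called higher was thus above the background in both ages, and the share called lower near or under it. The genes were chosen with earlier results of these data known, so this excess is not independent of that choice. The counts by role that follow are to be read beside these shares of all named genes. With each array scaled to its 75th percentile in place of quantile normalization, the young split was 11 higher and 2 lower, and the old split 11 and 3. The median log2 change of the 32 genes was 0.60 in old and 0.28 in young mice, beside -0.0033 and -0.0097 over all features. The activated and quiescent arrays did not overlap for 4 of the 32 genes in old mice, beside 8.96% of all named genes, and for 9 of the 32 in young mice, beside 22.3%.

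**Figure D1:**
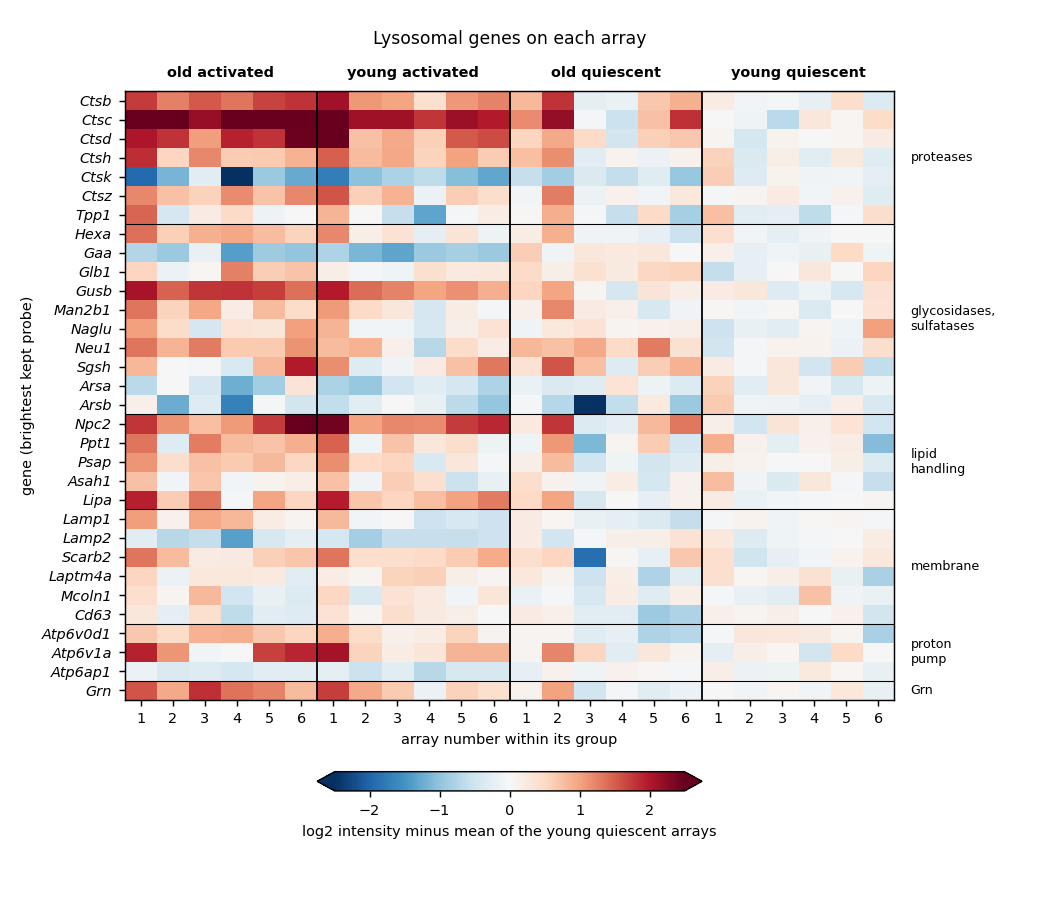
The 32 tested genes (rows, grouped by role) on each of the 24 arrays (columns), coloured by the log2 intensity minus the mean of the young quiescent arrays. Red rows for Ctsb, Ctsc, Ctsd, Gusb and Npc2 and blue rows for Ctsk and Gaa run through the activated arrays, and old quiescent array 2 is redder than its neighbours in many rows.

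By age, 6 genes were called higher in both (Ctsb, Ctsc, Ctsd, Ctsz, Gusb, Grn) and 3 lower in both (Ctsk, Gaa, Lamp2). Hexa, Psap, Lamp1 and Atp6v0d1 were called higher in old mice alone. Ctsh, Npc2 and Lipa were called higher, and Arsa and Atp6ap1 lower, in young mice alone. No gene was called in opposite directions, and 14 were called in neither age. A call in 1 age alone does not show that the ages differ: the difference between the 2 activation changes was called for 0 of the 32 genes.

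**Figure D2:**
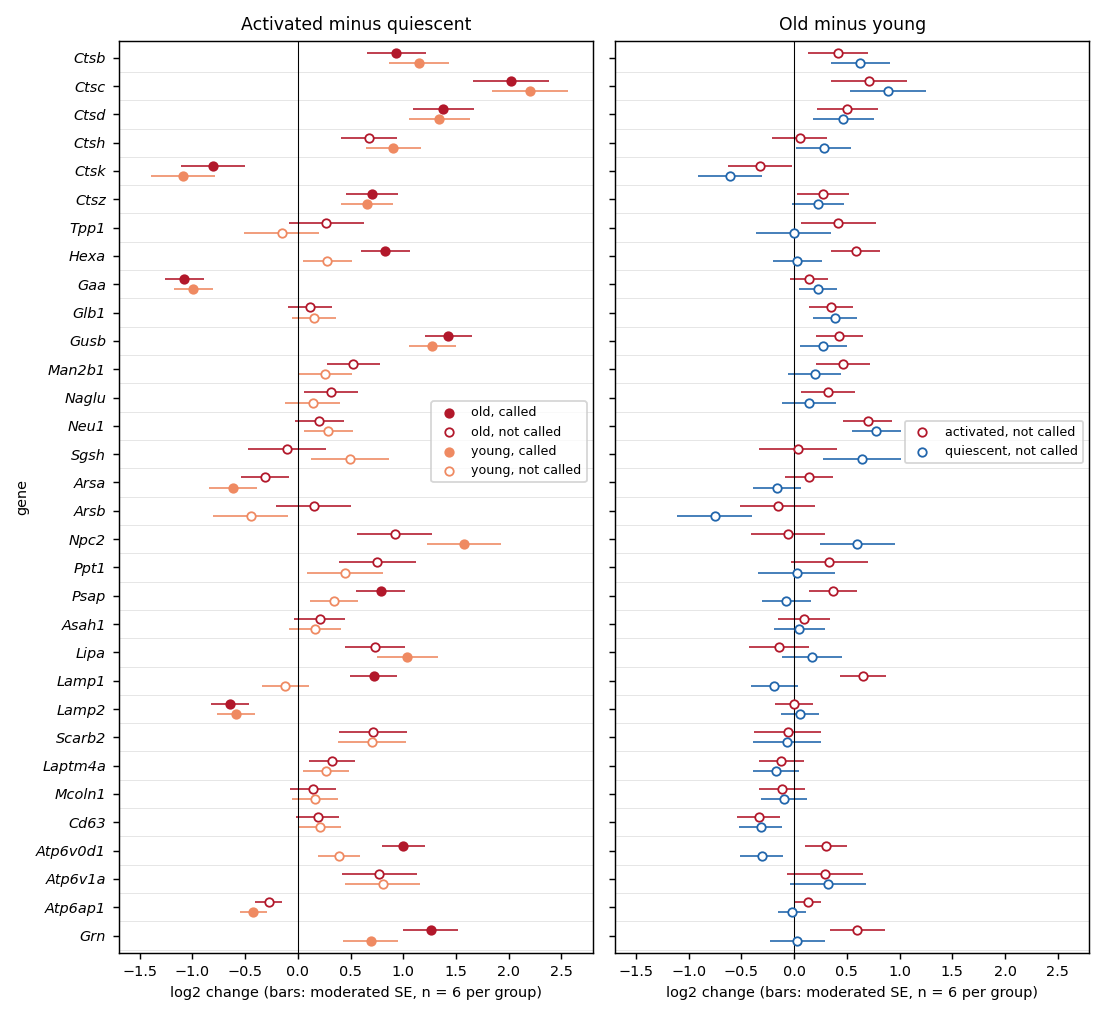
Log2 change with its moderated SE (horizontal bars, n = 6 arrays per group) of the 32 tested genes; the left panel gives activated minus quiescent in old and young mice, the right panel old minus young in activated and quiescent arrays, with filled points for called changes. Ctsc has the largest changes on the left (2.02 in old and 2.20 in young mice), and the right panel has no filled point.

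Among the 7 tested proteases, 4 rose and 1 fell in old mice, and 5 rose and 1 fell in young mice. Ctsc, the dipeptidyl peptidase that activates serine proteases of leukocyte granules, had the largest change of the 32 genes in both ages. It read 10.38, 11.13 and 11.74 in old activated arrays and 9.99, 10.32 and 11.24 in young activated arrays. Without injury it read 7.65, 9.15 and 10.39 in old quiescent arrays and 7.52, 8.21 and 8.65 in young quiescent arrays. In young mice every activated array lay above every quiescent one, whereas in old mice the groups met, because the highest old quiescent array was level with the lowest old activated one. Ctsc rose by 2.02 ± 0.36 on the log2 scale in old mice (4.05-fold, adjusted p = 0.000185) and by 2.20 ± 0.36 in young mice (4.59-fold, adjusted p = 3.99e-05). Its 2 dimmer probes were higher in both ages as well, by 2.31 and 1.44 in old and by 2.39 and 2.55 in young mice.

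Ctsd encodes the main aspartic protease of the lysosome. Its probe was dim and was detected on all 12 activated arrays, but on 4 old quiescent and 3 young quiescent arrays. Levels were 5.87, 6.70 and 7.28 in old activated arrays and 5.43, 6.06 and 7.43 in young activated arrays. They were 4.38, 5.39 and 5.77 in old quiescent arrays and 4.39, 4.88 and 5.04 in young quiescent arrays. The groups did not overlap in either age. Ctsd rose by 1.38 ± 0.29 in old mice (2.60-fold, adjusted p = 0.000907) and by 1.34 ± 0.29 in young mice (2.53-fold, adjusted p = 0.000809). The size of the change depended on the background step: without background correction Ctsd rose by 0.59 ± 0.13 in old and 0.51 ± 0.13 in young mice (adjusted p = 0.00198 and 0.00527).

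Ctsb, an abundant cysteine protease, read 12.94, 13.29 and 13.48 in old activated arrays and 12.07, 12.76 and 13.77 in young activated arrays. Ctsb had 11.45, 12.41 and 13.48 in old quiescent arrays and 11.34, 11.62 and 12.12 in young quiescent arrays. The highest old quiescent array reached the top of the old activated range, and each of the 6 activated arrays lay above the quiescent mean of its age. Ctsb rose by 0.94 ± 0.28 in old mice (1.91-fold, adjusted p = 0.0151) and by 1.15 ± 0.28 in young mice (2.21-fold, adjusted p = 0.00281).

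Ctsz is a cysteine carboxypeptidase and Ctsh an aminopeptidase. Ctsz had 11.64, 12.01 and 12.26 in old activated arrays and 10.92, 11.67 and 12.63 in young activated arrays. It had 10.91, 11.08 and 12.34 in old quiescent arrays and 10.77, 11.08 and 11.27 in young quiescent arrays. Activated and quiescent arrays overlapped in both ages, in old mice through 1 quiescent array. Ctsz rose by 0.71 ± 0.25 in old mice (adjusted p = 0.0342) and by 0.66 ± 0.25 in young mice (adjusted p = 0.0414). Both calls lay near the threshold: when each of the 24 arrays was left out in turn, the old call was lost in 7 fits (adjusted p up to 0.0764) and the young call in 9 (up to 0.124, without young activated array 1). A second Ctsz probe was called higher in old mice, by 0.72 (adjusted p over probes 0.0333), but not in young mice (0.62, adjusted p over probes 0.0588). Ctsh had 9.95, 10.18 and 11.26 in old activated arrays and 9.97, 10.29 and 10.92 in young activated arrays. Without injury Ctsh had 9.14, 9.51 and 10.58 in old quiescent arrays and 9.05, 9.34 and 9.98 in young quiescent arrays. It overlapped between states in both ages. Ctsh rose by 0.91 ± 0.26 in young mice (adjusted p = 0.0089). In old mice it was not called, with an estimate of 0.67 ± 0.26 (adjusted p = 0.0552). Without old quiescent array 2, the highest of its group for Ctsh, the adjusted p was 0.0121.

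Cathepsin K is the collagen-cutting protease best known from osteoclasts, and fibroblasts express it as well. Ctsk stood at 7.54, 9.25 and 10.20 in old activated arrays and 8.74, 9.42 and 9.83 in young activated arrays. Without injury it stood at 9.53, 9.88 and 10.16 in old quiescent arrays and 10.14, 10.39 and 11.08 in young quiescent arrays. Among the tested proteases of the set it was the only one called lower, and in young mice the groups did not overlap. Ctsk fell by 1.09 ± 0.30 in young mice (2.13-fold lower, adjusted p = 0.0069). In old mice it fell by 0.81 ± 0.30 (1.75-fold lower, adjusted p = 0.0487), a call that was lost in 18 of the 24 fits without 1 array (adjusted p up to 0.133). Tpp1, a tripeptidyl peptidase, was not called: its estimates were 0.27 ± 0.35 in old and -0.15 ± 0.35 in young mice.

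**Figure D3:**
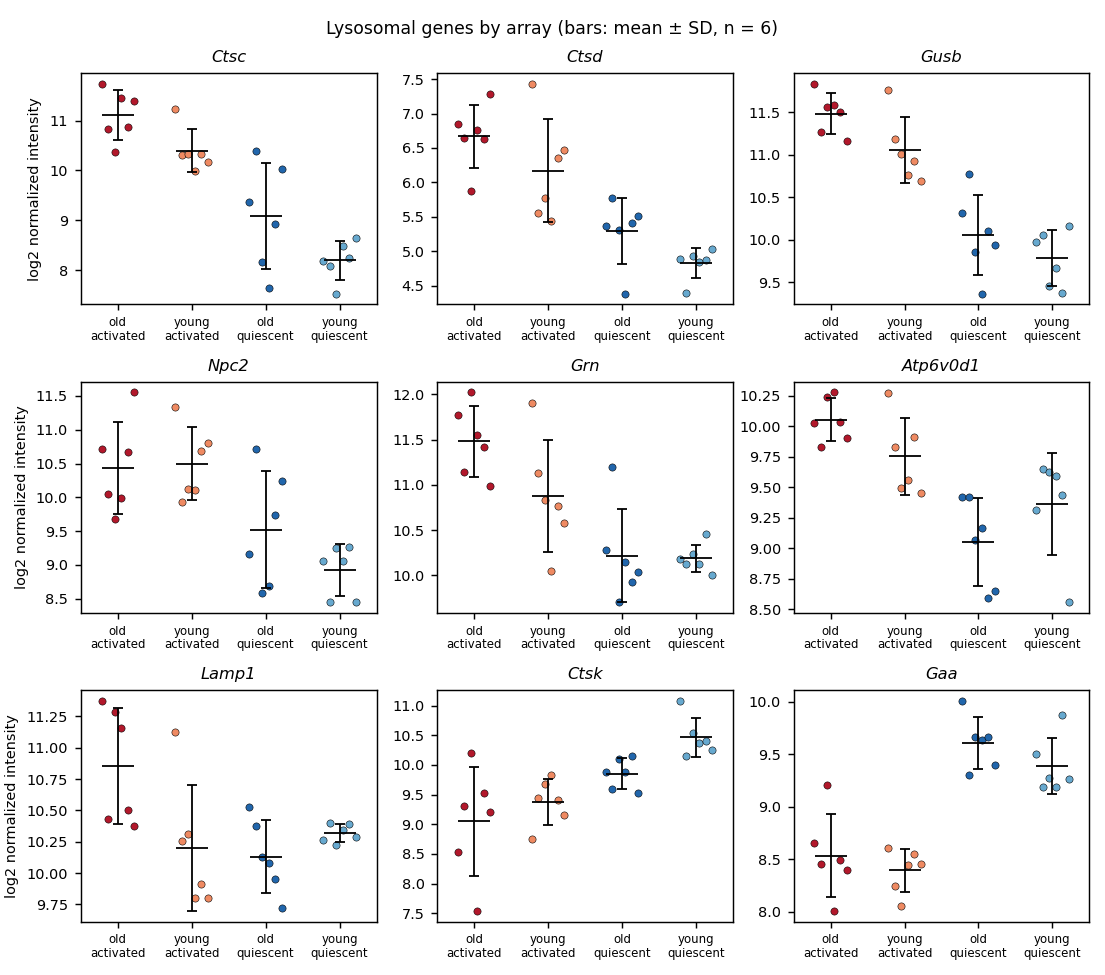
Log2 normalized intensity of 9 genes on each array (points) with the mean and SD of the 6 arrays per group (bars); each panel has its own axis range. Ctsd, Gusb and Gaa separate the activated from the quiescent arrays of each age, and for Lamp1 the old activated arrays spread from 10.38 to 11.37.

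The 10 tested glycosidases and sulfatases take sugar chains and sulfate groups off glycoproteins, glycolipids and glycosaminoglycans. Of these, 2 rose and 1 fell in old mice, and 1 rose and 2 fell in young mice. These shares, 20% and 10% in old and 10% and 20% in young mice, were near those of all named genes. Gusb, β-glucuronidase, read 11.16, 11.53 and 11.83 in old activated arrays and 10.69, 10.97 and 11.76 in young activated arrays. Its quiescent levels were 9.36, 10.02 and 10.77 in old quiescent arrays and 9.37, 9.82 and 10.16 in young quiescent arrays. All activated arrays lay above all quiescent arrays of their age. Gusb rose by 1.43 ± 0.22 in old mice (2.69-fold, adjusted p = 3.78e-05) and by 1.27 ± 0.22 in young mice (2.42-fold, adjusted p = 7.36e-05). A dimmer Gusb probe was detected on 3 old activated and 4 young activated arrays, and on 0 old quiescent and 1 young quiescent arrays. That probe, which passed the filter through its activated arrays, had a change of 0.84 in old mice (adjusted p over probes 0.0327). In young mice its change of 0.47 was not called (adjusted p over probes 0.228).

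Gaa, the acid α-glucosidase that degrades glycogen and is lacking in Pompe disease, was lower on activated arrays. It stood at 8.01, 8.47 and 9.20 in old activated arrays and 8.06, 8.45 and 8.61 in young activated arrays. Without injury it stood at 9.30, 9.65 and 10.01 in old quiescent arrays and 9.19, 9.27 and 9.88 in young quiescent arrays. The groups were apart in both ages, with every activated array below every quiescent one. Gaa fell by 1.08 ± 0.18 in old mice (2.11-fold lower, adjusted p = 0.000111) and by 0.99 ± 0.18 in young mice (1.99-fold lower, adjusted p = 0.000162).

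Hexa, the α subunit of β-hexosaminidase, which is lacking in Tay-Sachs disease, stood at 11.19, 11.47 and 12.03 in old activated arrays and 10.41, 10.88 and 11.84 in young activated arrays. Hexa stood at 10.11, 10.56 and 11.53 in old quiescent arrays and 10.41, 10.60 and 11.06 in young quiescent arrays. The ranges overlapped in both ages. Hexa rose by 0.83 ± 0.23 in old mice (adjusted p = 0.00954), and its estimate in young mice was 0.28 ± 0.23 (adjusted p = 0.391). Arsa, arylsulfatase A, which acts on sulfatide, had 8.79, 9.46 and 10.33 in old activated arrays and 9.06, 9.38 and 9.72 in young activated arrays. Its quiescent levels were 9.63, 9.77 and 10.34 in old quiescent arrays and 9.61, 9.90 and 10.57 in young quiescent arrays. Its ranges also overlapped, by a narrow margin in young mice. Arsa fell by 0.62 ± 0.23 in young mice (adjusted p = 0.038), a call lost in 6 of the 24 fits without 1 array (adjusted p up to 0.102), and its estimate in old mice was -0.31 ± 0.23 (adjusted p = 0.328).

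Glb1, Man2b1, Naglu, Neu1, Sgsh and Arsb were called in neither age. Their estimates lay between -0.45 (Arsb in young mice) and 0.53 (Man2b1 in old mice). Without old quiescent array 2, Man2b1, lysosomal α-mannosidase, passed in old mice with a change of 0.73 (adjusted p = 0.0206). Glb1, the β-galactosidase behind the senescence-associated stain, had estimates of 0.12 ± 0.21 in old and 0.15 ± 0.21 in young mice, with intervals of -0.31 to 0.55 and -0.28 to 0.59.

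All 5 tested genes of lipid handling had positive estimates in both ages, with 1 called higher in old and 2 in young mice. Npc2, the soluble carrier that hands cholesterol to NPC1, stood at 9.67, 10.35 and 11.55 in old activated arrays and 9.94, 10.40 and 11.34 in young activated arrays. It stood at 8.58, 9.45 and 10.72 in old quiescent arrays and 8.44, 9.06 and 9.27 in young quiescent arrays. The young groups were apart, while the old quiescent arrays spread far into the old activated range. Npc2 rose by 1.58 ± 0.35 in young mice (2.98-fold, adjusted p = 0.00117), and its estimate in old mice was 0.92 ± 0.35 (adjusted p = 0.0542, but 0.0119 without old quiescent array 2). Lipa, lysosomal acid lipase, was dim: it was detected on 5 old activated and 6 young activated arrays, against 2 old quiescent and 0 young quiescent arrays. Its levels were 4.59, 5.43 and 6.56 in old activated arrays and 5.16, 5.49 and 6.58 in young activated arrays. They were 4.22, 4.67 and 5.61 in old quiescent arrays and 4.46, 4.60 and 4.82 in young quiescent arrays. Lipa thus passed the detection filter through its activated arrays. Because it was not well above background in young quiescent arrays, its rise in young mice is given as at least 1.71-fold with the background correction used here. The adjusted p of limma, 0.00628, belongs to the log2 change of 1.04 ± 0.29 without that bound. Without background correction the log2 change of Lipa in young mice was 0.33 ± 0.11 (adjusted p = 0.0232). In old mice the estimate was 0.73 ± 0.29 (adjusted p = 0.0572, but 0.0189 without old quiescent array 2).

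Psap, the precursor of the saposins that present glycolipids to hydrolases, had 13.49, 13.73 and 14.15 in old activated arrays and 12.66, 13.44 and 14.21 in young activated arrays. It had 12.54, 12.82 and 13.84 in old quiescent arrays and 12.69, 13.09 and 13.19 in young quiescent arrays. The old activated arrays lay above all old quiescent arrays but 1. Psap rose by 0.79 ± 0.23 in old mice (adjusted p = 0.0126), and its estimate in young mice was 0.34 ± 0.23 (adjusted p = 0.272, but 0.0184 under 75th percentile scaling). Ppt1, a palmitoyl-protein thioesterase, and Asah1, acid ceramidase, were not called, with estimates between 0.16 and 0.76; without old quiescent array 2, Ppt1 passed in old mice (adjusted p = 0.0445).

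Membrane proteins gave 1 call in each direction in old mice and 1 lower call in young mice, out of 6 tested. Lamp1, a heavily glycosylated protein of the lysosomal membrane, stood at 10.38, 10.83 and 11.37 in old activated arrays and 9.80, 10.09 and 11.12 in young activated arrays. Without injury Lamp1 stood at 9.72, 10.11 and 10.53 in old quiescent arrays and 10.23, 10.32 and 10.40 in young quiescent arrays. The young quiescent arrays were tightly grouped and 5 of the 6 young activated arrays were below their mean, while all 6 old activated arrays lay above the old quiescent mean. Lamp1 rose by 0.72 ± 0.22 in old mice (adjusted p = 0.0168), a call lost with array weights and with only the old groups in the fit (adjusted p up to 0.0721), and in young mice the estimate was -0.12 ± 0.22 (adjusted p = 0.729). The difference between these changes, 0.84 ± 0.31, was not called (adjusted p = 0.4).

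Among the tested genes, only Lamp2 had kept probes called in opposite directions. Probes of Cd63 in old mice and of Atp6v0d1 in young mice also differed in sign, but none of these was called. The brightest Lamp2 probe stood at 10.95, 11.80 and 12.07 in old activated arrays and 11.45, 11.73 and 11.87 in young activated arrays. It stood at 11.82, 12.45 and 12.66 in old quiescent arrays and 11.97, 12.29 and 12.57 in young quiescent arrays. On this probe the young groups were apart and Lamp2 was called lower, by 0.65 ± 0.18 in old mice (adjusted p = 0.00932) and by 0.59 ± 0.18 in young mice (adjusted p = 0.0147). The second probe, annotated to the same RefSeq transcript record, had estimates of -0.52 in old and -0.50 in young mice (adjusted p over probes 0.0645 and 0.0733). The other pair of probes is annotated to another Lamp2 transcript record. The third had -0.22 and 0.09, and the dimmest was called higher in old mice, by 1.22 (adjusted p over probes 0.00373), with 0.56 in young mice (0.161). The dimmest probe was detected on all 12 activated arrays, on 2 old quiescent arrays and on 5 young quiescent arrays. Averaged over the 4 probes, the change was -0.04 in old and -0.11 in young mice and was not called. That mean weighs a probe near background as much as the brightest. The fall was thus called for the brightest probe alone, and these probes do not settle whether it holds for the gene. Under 75th percentile scaling the young change of the brightest probe was -0.41 (adjusted p = 0.186).

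**Figure D4:**
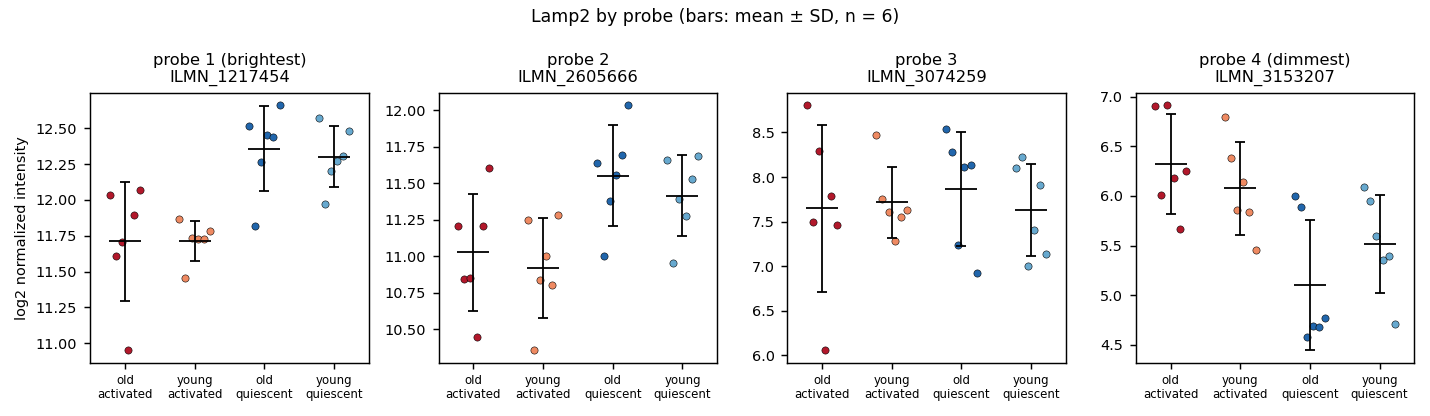
Log2 normalized intensity of the 4 kept Lamp2 probes, from brightest to dimmest, on each array (points) with the mean and SD of 6 arrays per group (bars); each panel has its own axis range. The brightest probe was called lower in both ages and the dimmest, at levels near background, higher in old mice; the probes between them were not called.

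Scarb2 (LIMP-2, the receptor that carries glucocerebrosidase to lysosomes), Laptm4a, the calcium channel Mcoln1 and the tetraspanin Cd63 were not called. Scarb2 had nearly the same estimate in both ages, 0.71 ± 0.32 in old and 0.70 ± 0.32 in young mice (adjusted p = 0.0998 and 0.0937), and all 6 activated arrays of each age lay above the quiescent mean. Mcoln1 was detected on 6 of the 24 arrays, none of them old quiescent, so its level was close to background. Cd63 had 3 kept probes, of which none was called in either age, though under 75th percentile scaling Cd63 passed in young mice (adjusted p = 0.0334).

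Of the 3 tested genes of the vacuolar ATPase, 1 rose in old mice and 1 fell in young mice. Atp6v0d1, the d1 subunit of the membrane sector, stood at 9.83, 10.03 and 10.28 in old activated arrays and 9.45, 9.69 and 10.27 in young activated arrays. Without injury it stood at 8.60, 9.12 and 9.42 in old quiescent arrays and 8.56, 9.52 and 9.65 in young quiescent arrays. All old activated arrays were above all old quiescent ones, and the young groups overlapped. Atp6v0d1 rose by 1.00 ± 0.20 in old mice (2.00-fold, adjusted p = 0.00066), and its estimate in young mice was 0.39 ± 0.20 (adjusted p = 0.145). Its second probe was called higher in old mice too, by 1.08.

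Atp6ap1, an accessory subunit of the pump, had 12.71, 12.86 and 13.00 in old activated arrays and 12.45, 12.74 and 12.91 in young activated arrays. Its quiescent levels were 12.95, 13.13 and 13.26 in old quiescent arrays and 12.96, 13.11 and 13.39 in young quiescent arrays. The young groups were apart. Atp6ap1 fell by 0.42 ± 0.13 in young mice (adjusted p = 0.0136), but by 0.10 under 75th percentile scaling, where it was not called (adjusted p = 0.681). In old mice the estimate was -0.28 ± 0.13 (adjusted p = 0.117). There it passed without background correction, with the deposited log2 values and without the filter on dim probes (adjusted p down to 0.0278). Atp6v1a, the catalytic A subunit, had estimates of 0.77 ± 0.36 in old and 0.80 ± 0.36 in young mice and was not called (adjusted p = 0.111 and 0.0873); without old quiescent array 2 it passed in old mice (adjusted p = 0.0493).

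Grn encodes progranulin, a secreted protein that also reaches lysosomes and is cut there into granulins. It read 10.98, 11.48 and 12.02 in old activated arrays and 10.05, 10.80 and 11.91 in young activated arrays. Without injury Grn read 9.71, 10.10 and 11.19 in old quiescent arrays and 10.01, 10.15 and 10.46 in young quiescent arrays. In both ages the ranges overlapped, in old mice through 1 quiescent array at 11.19. Grn rose by 1.26 ± 0.26 in old mice (2.40-fold, adjusted p = 0.00081) and by 0.69 ± 0.26 in young mice (1.62-fold, adjusted p = 0.0428), where the call was lost in 9 of the 24 fits without 1 array (adjusted p up to 0.13). Tfeb, the transcription factor, was detected on 0 of 24 arrays, and its relatives Tfe3 and Mitf were detected on 7 each and not called.

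Age itself gave no call among these genes. In activated arrays 0 of the 32 differed between old and young mice (4 at an unadjusted p under 0.05), where 0.238% of all named genes were called higher and 0.0396% lower in old mice. In quiescent arrays 0 differed (also 4 at an unadjusted p under 0.05), where 0.383% and 0.158% were. Of the activation changes 0 differed between the ages (2 at an unadjusted p under 0.05), where 0.172% of all named genes had a higher and 0.0264% a lower change in old mice. The median difference between old and young was 0.28 in activated and 0.05 in quiescent arrays, beside -0.018 and -0.014 over all features.

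Neu1, the sialidase that takes sialic acid off glycoproteins, had the lowest adjusted p in both age comparisons. It stood at 9.32, 9.65 and 9.99 in old activated arrays and 7.97, 8.99 and 9.53 in young activated arrays. Neu1 levels were 9.06, 9.44 and 9.97 in old quiescent arrays and 8.22, 8.69 and 9.11 in young quiescent arrays. All 6 old arrays lay above the young mean in each state, and the ranges overlapped. The difference was 0.70 ± 0.23 in activated arrays (95% interval 0.22 to 1.17, adjusted p = 0.201) and 0.78 ± 0.23 in quiescent arrays (0.30 to 1.26, adjusted p = 0.117). Hexa, Lamp1 and Grn were the other genes with an unadjusted p under 0.05 in activated arrays, with old minus young at 0.58 ± 0.23, 0.65 ± 0.22 and 0.60 ± 0.26. Without young activated array 1, Lamp1 passed (0.84, adjusted p = 0.036). In quiescent arrays the others were Ctsb at 0.63 ± 0.28, Ctsc at 0.89 ± 0.36 and Arsb at -0.75 ± 0.36; without old quiescent array 2, Ctsb was at 0.39 and Ctsc at 0.63. Intervals were wide for the genes with the largest activation changes: the old minus young difference in activation of Ctsc was -0.18 ± 0.51 (-1.23 to 0.87) and that of Npc2 -0.66 ± 0.50 (-1.69 to 0.37). Intervals of this width do not show that the ages responded alike.

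On 1 array of each of the 4 groups, the genes that rose and the macrophage markers were both at their highest. The genes that rose or fell were picked by their calls on these same arrays. For those genes, a gap between activated and quiescent medians therefore follows from that choice and is no further evidence of a change. Over the 13 genes called higher in either age, the median difference from the young quiescent mean was 0.73 to 1.74 on old activated arrays, 0.40 to 1.72 on young activated arrays, -0.22 to 0.99 on old quiescent arrays and -0.18 to 0.14 on young quiescent arrays. Over all 32 genes it was 0.40 to 1.16 on old activated arrays, 0.11 to 0.99 on young activated arrays, -0.17 to 0.76 on old quiescent arrays and -0.15 to 0.15 on young quiescent arrays. In each group the highest value over the 13 genes was on the array with the highest macrophage sum: old activated array 1, young activated array 1, old quiescent array 2 and young quiescent array 1. The macrophage marker Adgre1 (F4/80) stood at 8.09, 9.41 and 10.36 in old activated arrays and 7.05, 8.49 and 10.46 in young activated arrays. It stood at 5.77, 7.24 and 9.34 in old quiescent arrays and 4.39, 5.34 and 6.14 in young quiescent arrays. Over the 5 genes called lower in either age, the median difference was -1.35 to -0.26 on old activated arrays and -0.95 to -0.57 on young activated arrays, against -0.37 to 0.15 on old quiescent arrays and -0.25 to 0.27 on young quiescent arrays. The part of macrophage RNA in these values was not tested.

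**Figure D5:**
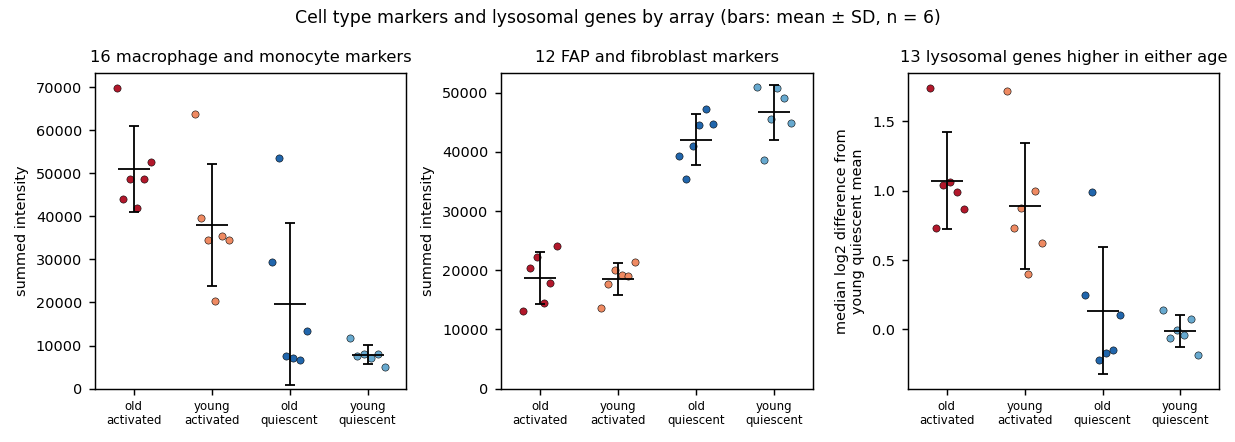
Summed intensity of the 16 macrophage and monocyte markers (left) and of the 12 FAP and fibroblast markers (middle) and the median log2 difference of the 13 lysosomal genes called higher in either age from their young quiescent mean (right), on each array (points) with mean and SD of 6 arrays (bars). In each group the same array is highest in the left and in the right panel. The 13 genes were picked by their calls on these arrays, so the right panel is no separate test of activation.

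Results were recomputed without those arrays. Without old quiescent array 2, old mice had 19 calls (16 higher, 3 lower) in place of 13, and the median change was 0.75. The added calls were Ctsh, Man2b1, Npc2, Ppt1, Lipa and Atp6v1a. For each of these genes array 2 was the highest old quiescent array, so leaving it out had to raise the estimate. The added calls are therefore no separate evidence of a rise. Without old activated array 1, old mice had 11 calls (9 higher, 2 lower), with Ctsk and Ctsz no longer called. Without young activated array 1, young mice had 11 calls (7 higher, 4 lower) in place of 14, the median change was 0.18, and Ctsz (adjusted p = 0.124), Arsa (0.0698) and Grn (0.13) were no longer called. Without young quiescent array 1, young mice had 11 calls as well (7 higher, 4 lower), and the same 3 genes were no longer called. Without old quiescent array 2 and old activated array 4, the array with the fewest detected probes, old mice had 17 calls (15 higher, 2 lower). Ctsb, Ctsc, Ctsd, Gusb and Gaa kept their calls in both ages in every fit that left out 1 array.

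The groups also differed in how widely the arrays spread. Of the 32 genes, 28.1% had their largest SD in young activated arrays, against 10.6% of all features. The shares were 28.1% and 35.9% in old activated arrays, 31.2% and 39.6% in old quiescent arrays, and 12.5% and 13.9% in young quiescent arrays.

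Genes outside the set that work in the same compartment were counted from lists of lysosomal genes. Each count is to be read beside the share of all named genes. That share was 14.5% higher and 13.9% lower in old mice, and 17.1% and 16.7% in young mice. Of 14 tested other hydrolases and activators, 3 rose and 2 fell in old mice, and 6 rose and 3 fell in young mice. Lgmn, the asparaginyl endopeptidase legumain, rose by 2.62 ± 0.45 in old and 3.14 ± 0.45 in young mice. It was detected on all activated arrays, but on 4 of 6 old quiescent and 1 of 6 young quiescent arrays. Lgmn thus passed the detection filter through its activated arrays, and in young mice it was compared with a level near background. Ctss, a cysteine protease of antigen-presenting cells, rose by 3.64 ± 0.75 in young mice, and its estimate in old mice was 1.77 ± 0.75 (adjusted p = 0.0781). Ctss spread widely in old mice, with 7.52, 9.01 and 10.82 in old activated arrays and 5.07, 7.31 and 10.32 in old quiescent arrays. Acp2, an acid phosphatase, rose by 1.30 ± 0.41 in young mice, with an estimate of 0.90 ± 0.41 in old mice. Smpd1, acid sphingomyelinase, fell by 0.84 in young mice, with an estimate of -0.48 in old mice.

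Of 16 other membrane proteins, 5 rose and 3 fell in old mice, and 5 rose and 4 fell in young mice. Slc11a1, a metal transporter of phagocyte compartments, rose by 1.64 ± 0.30 in old and 1.73 ± 0.30 in young mice. The peptide transporter Abcb9 fell by 1.66 in old and 1.23 in young mice, and Tmem63a, a mechanosensitive channel, fell by 1.01 in old and 1.47 in young mice. Of 14 other proton pump subunits, 6 rose and 1 fell in old mice, and 4 rose and 1 fell in young mice. Tcirg1, the a3 subunit known from osteoclasts, rose by 1.45 ± 0.34 in old and 1.30 ± 0.34 in young mice, and Atp6v1b2 by 1.37 ± 0.28 and 1.23 ± 0.28. Atp6v1c1 rose by 1.43 ± 0.35 in young mice, with an estimate of 0.81 ± 0.35 in old mice.

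Of 11 genes that sort enzymes to lysosomes, 3 rose and 1 fell in old mice, and 2 rose and 2 fell in young mice. Vps29 of the retromer rose by 1.26 ± 0.17 in old and 1.43 ± 0.17 in young mice, and its activated and quiescent arrays were apart in both ages. Ap1b1 of the AP-1 adaptor rose by 1.38 ± 0.23 and 1.11 ± 0.23. Gnptg, a subunit of the enzyme that makes the mannose 6-phosphate tag, fell by 0.75 in old and 1.18 in young mice. The mannose 6-phosphate receptors Igf2r and M6pr were not called.

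Of 10 regulators tested, 2 rose and 0 fell in old mice, and 2 rose and 1 fell in young mice. Lamtor1 of the Ragulator complex, which recruits mTORC1 to lysosomes, rose by 1.01 ± 0.20 in old and 1.06 ± 0.20 in young mice. Lamtor2 rose by 0.60 ± 0.22 and Mtor fell by 0.64 in young mice, with estimates of 0.14 and -0.29 in old mice that were not called. Of 16 autophagy genes, 0 rose in either age, 4 fell in old mice and 5 fell in young mice. Gabarapl1 and Map1lc3a, ATG8-family proteins of the autophagosome membrane, fell by 1.70 and 1.09 in old and by 1.45 and 0.97 in young mice. Atg4b, the protease that processes them, fell by 0.89 and 0.77. Sqstm1 (p62) was not called. Over the 6 lists, limma called 0 of 81 genes between old and young activated arrays (9 at an unadjusted p under 0.05), 0 between old and young quiescent arrays (10), and 0 for the difference between activation changes (7).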

How the data were processed

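RNA of sorted FAPs from 4 groups of 6 samples was measured on 24 Illumina 1-colour arrays. Per the file headers, the authors deposited non-normalized intensities of 25697 probes with a detection p-value for each probe and array. The authors also deposited normalized log2 values, used here as an alternative; the largest gap to the intensities after log2 and quantile normalization was 0.118. The submitters' processing notes name Partek without saying for which step. Each group's columns share a letter of unstated meaning, and whatever lies behind it cannot be told apart from age and injury.

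limma's nec, which uses the detection p-values, corrected the background (offset 16), followed by quantile normalization and log2 (R 4.3.3, limma 3.58.1). A probe was used if 6 or more of the 24 arrays detected it (p under 0.01), which left 10048, and among these the one with the highest mean intensity stood for a gene, for 7576 named genes and 572 unnamed probes. Of all probes, 23978 had 1 symbol, 0 had several and 1719 were unnamed here. limma's lmFit and eBayes fitted 1 model of 4 group means with 5 contrasts, adjusted by Benjamini-Hochberg over 8148 features, and calls had an adjusted p under 0.05. Adjusted p-values of single probes are over the 10048 probes. Where no array of a group detected a gene, the fold is a lower bound: each array of that group was set to its lowest detected signal, or to the probe's own signal if that was higher, before averaging. The fit was tested on simulated data.

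All 37 genes could be named, with the 3 called genes of largest mean activation change of each other list, and genes set by name. The members and lists were chosen with earlier results of these data known. Alternatives changed the background correction, normalization, offset, filter, probe choice, array weights, samples in the fit and replicate block, and left out arrays. Replicate numbers were not treated as pairs in the main fit, and whether they pair samples is not known. Of 36 same-numbered pairs, 8 had a correlation of deviations over 0.1. The median correlation was 0.051, beside -0.010 for pairs with different numbers. Arrays give no counts, so their number limits the precision.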

Additional observations from a re-analysis of the deposited data

Results flagged for a closer look

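In 14 of the 128 sets of 6 arrays (32 genes in 4 groups), 1 array lay far from the rest, with a gap to its nearest neighbour, as a share of the group's range, above Dixon's 95% critical value, where chance gives about 1 in 20. Ctsd and Mcoln1, with levels near background, are among them.

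In young activated arrays the gap was 0.724 of the range for Ctsc (array 1 at 11.24, its neighbour at 10.34) and 0.644 for Atp6v1a (array 1 at 8.02, its neighbour at 6.80). Array 1 had the highest macrophage marker sum of its group. Lamp2 had 0.658, with array 2 at 11.45 below the rest. In old activated arrays Ppt1 had 0.628, with array 2 at 5.05 below its neighbour at 6.09.

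In old quiescent arrays Ctsz had 0.706, with array 2 at 12.34 above its neighbour at 11.33, and array 2 had the highest macrophage marker sum of its group. Ctsd had 0.671 (array 4 at 4.38) and Arsa 0.667 (array 4 at 10.34). Scarb2 had 0.658, with array 3 at 5.82 below the rest.

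In young quiescent arrays, array 6 was lowest for Psap (0.671), Cd63 (0.785) and Atp6v0d1 (0.695). Ctsd had 0.696, with array 2 at 4.39. Hexa had 0.665, with array 1 at 11.06. Mcoln1 had 0.761, with array 4 at 5.39 and its neighbour at 4.63.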

How the results depend on the processing

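No change turned its direction with a call under any alternative run. The activation calls numbered 9 to 17 in old mice (13 as reported) and 11 to 16 in young mice (14 as reported) under the other settings tried; leaving out each array in turn gave 11 to 19 in old and 11 to 15 in young mice. The age comparison gave 0 calls in quiescent arrays throughout, and 0 to 1 in activated arrays, the 1 being Lamp1 without young activated array 1; the difference between activation changes gave 0 throughout. With only the compared groups in the fit, old mice had 9 calls and young mice 16. With replicate number as a block, old mice had 17 calls (13 of 13 kept) and young mice 13 (12 of 14 kept). The other comparisons had 0. The labels give these samples only a shared number, and 8 of 24 arrays correlated best with their own number. Of 35 settings, Ctsk in old mice lost its call in 22, Ctsz in young mice in 11, Grn in young mice in 10, and Arsa in young and Ctsz in old mice in 9 each; the cause was not tested. Under 75th percentile scaling, Arsa, Lamp2 and Atp6ap1 lost their young calls, and Psap and Cd63 gained one. Ctsb, Ctsc, Ctsd, Gaa and Gusb kept their calls in both ages under every alternative in which they were tested. The comparison of activation changes has no fit with 2 groups only. Dim probes limit Ctsd, Lipa and Mcoln1, whose quiescent levels lie near background.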
